A study of Mus musculus with 2 samples.

Results

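The 10 genes described here encode the constant parts of mouse antibodies and the chain that joins antibody units. They are the heavy-chain constant genes Ighm, Ighd, Igha, Ighg2b and Ighg2c, the light-chain constant genes Igkc, Iglc1, Iglc2 and Iglc3, and Jchain. They were chosen by name and are 10 of the 31053 genes in both count matrices. The cells came from colons of bone marrow chimeras, in which CD45.2 donor marrow had been engrafted into CD45.1 recipients. Donor marrow of both groups was labelled as lacking IL-10R, and that of 1 group (IL-10R/CerS2 DKO, here DKO) as lacking CerS2 too, a synthase of very long chain ceramides, which the other (IL-10R KO, here KO) still had. Cells had been sorted on the myeloid surface proteins CD11b, CD11c and CD64, and are labelled as colon macrophages. Droplet 3′ RNA was sequenced in 1 library of each genotype. No difference given here could be checked in a replicate, no test was run, and genotype, mouse, sort and library cannot be told apart. The age of the mice was not given in the sources used here, and cells of the recipients that survived engraftment cannot be told apart from donor cells in these counts.

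An antibody is built from paired heavy and light chains, and the constant gene of the heavy chain sets its class. A naive B cell makes IgM and IgD from a shared transcript by alternative splicing, and class switching then joins the same variable region to an IgG, IgE or IgA constant gene by deleting the DNA between them. Igkc serves the kappa light chain and the Iglc genes serve the lambda chains, and a B cell usually keeps only 1 kind. The gut is the main site of IgA production, where plasma cells secrete IgA units joined by the J chain for transport across the epithelium.

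In GRCm38, the assembly also known as mm10, the heavy-chain genes lie on the minus strand of chromosome 12. Ighm (chr12:113418558-113422730) comes first in the direction of transcription, followed by Ighd (chr12:113406604-113416324), Ighg2b (chr12:113302965-113307933), Ighg2c (chr12:113285325-113288932) and Igha (chr12:113254830-113260236). Igkc, with 1 exon, lies at chr6:70726435-70726966 on the plus strand, and Jchain lies at chr5:88519809-88527891 on the minus strand. The lambda genes lie on the minus strand of chromosome 16, Iglc1 at chr16:19061618-19062071, Iglc3 at chr16:19065230-19065681 and Iglc2 at chr16:19198396-19200351.

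Iglc2 and Iglc3 are near copies, and reads of near copies can be split or lost by a counter. The last 120 coding bases of the lambda genes are shown because the lambda results below depend on whether reads could be placed, with capitals where a gene differs from Iglc2 (GRCm38, 5′ to 3′ on the minus strand).
Iglc1, chr16:19061755-19061874: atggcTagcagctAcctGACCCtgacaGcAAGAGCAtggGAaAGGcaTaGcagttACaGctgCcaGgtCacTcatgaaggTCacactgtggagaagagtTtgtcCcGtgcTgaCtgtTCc
Iglc2, chr16:19198539-19198658: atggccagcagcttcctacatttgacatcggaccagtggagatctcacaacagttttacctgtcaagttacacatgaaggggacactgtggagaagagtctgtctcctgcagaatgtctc
Iglc3, chr16:19065368-19065487: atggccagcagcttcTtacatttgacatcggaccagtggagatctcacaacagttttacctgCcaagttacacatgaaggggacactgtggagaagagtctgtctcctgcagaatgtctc
In these 120 bases Iglc3 differed from Iglc2 at 2 positions and Iglc1 at 38. Over the whole transcripts, Iglc2 and Iglc3 were 94.3% identical, and Iglc1 was 67.5% identical to Iglc2. None of the 211 windows of 90 bases in the last 300 bases of either transcript of the Iglc2 and Iglc3 pair occurred in the other, but the stretch shown differs at 2 of 120 positions, so how well the authors' counting separated this pair is uncertain and their individual values are to be read together. Ighg2b and Ighg2c were 76.7% identical.

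The KO library held 2584 barcodes and 12549471 UMIs and the DKO library 742 barcodes and 3414944 UMIs, and they shared 1 barcode. A UMI is a molecular tag that lets copies of a molecule count once. After a filter on detected genes and mitochondrial share, 2443 KO cells and 730 DKO cells were kept. Intervals in the text are exact 95% intervals and cover counting error only. As a check of the labels, Cers2 had 409 UMIs in myeloid-gated KO cells and 1 in DKO cells, and 21 UMIs in gated KO B cells (31.5 counts per 1000000 UMIs of the gate, CPM) and 0 in DKO, where 3 counts, the limit that a count of 0 allows, are 6.76 CPM. Il10rb, the receptor gene that the study's methods name as knocked out, gave 74 UMIs in 65 kept KO cells and 14 UMIs in 13 kept DKO cells. The deleted part of that gene was not given in the sources used here and no library with intact Il10rb was analysed here, so these 3′ tags do not check the IL-10R label.

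Cells with 3 or more UMIs of Cd79a, Cd79b and Ms4a1 together, which encode the signalling chains of the B cell receptor and CD20, were taken as B cells. They numbered 185 in KO, or 7.57% of kept cells (6.55 to 8.69), and 146 in DKO, or 20% (17.2 to 23.1). The name held up against a gene the gate did not use. The B cell transcription factor Ebf1 was seen in 177 of 185 gated KO cells and 142 of 146 gated DKO cells. Median depth was 2518 UMIs per cell in KO and 2600.5 in DKO. Since the sort was meant to leave B cells out, these shares describe what passed the sort and not the B cells of the colon. Myeloid gate genes reached 3 or more UMIs in 6 gated KO B cells and 1 gated DKO B cell.

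A gate for plasma cells, on Sdc1, Tnfrsf17, Mzb1 and Derl3, took in 29 KO cells and 6 DKO cells that went against that name. In the 29 KO cells, Sdc1 gave 218 UMIs and the other 3 genes gave 0, while the myeloid gene Cd14 was seen in 29 of 29. These Sdc1-led cells held 2 UMIs of the 10 genes in KO and 4 in DKO, and are not counted as plasma cells here.

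Most antibody RNA lay in the gated B cells, and most of that in a few cells. The 10 genes gave 48434 UMIs in kept KO cells and 5106 in kept DKO cells, which is 0.390% and 0.150% of all UMIs. The gated B cells held 97.1% of these UMIs in KO and 93.4% in DKO. Within the gate, 5 KO cells and 1 DKO cell had 100 or more Igha UMIs. They held 90.4% of all UMIs of the 10 genes in KO and 44.6% in DKO. This bound of 100 was set after the values were seen, in the wide gap between 19 UMIs (KO) or 10 UMIs (DKO) and 204 UMIs (KO) or 259 UMIs (DKO). The results below are therefore given with and without these 6 cells.

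**Figure D1:**
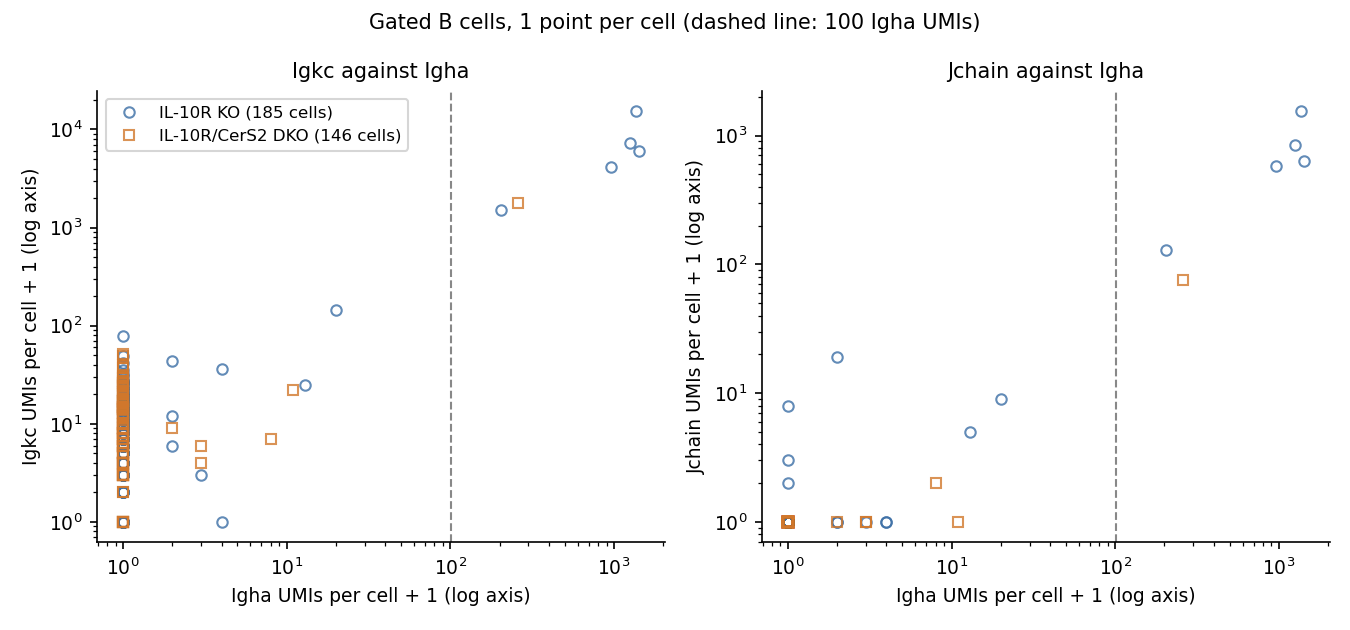
Igkc (left) and Jchain (right) against Igha in each gated B cell, in UMIs per cell plus 1 on log axes, with KO cells as circles, DKO cells as squares and a dashed line at 100 Igha UMIs. The 5 KO cells and 1 DKO cell right of the line also had the most Igkc and Jchain UMIs, and most of the other cells had no Igha UMI.

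The Igha-high cells varied widely in their amounts. In the 5 KO cells, Igha, the constant gene of IgA, gave 1422, 1362, 1252, 961 and 204 UMIs. Igkc gave 6096, 15415, 7255, 4165 and 1497 UMIs in the same cells, and Jchain gave 629, 1548, 836, 583 and 128. The 10 genes made up 43.5%, 71.2%, 38.0%, 28.3% and 8.86% of each cell's UMIs, so in 1 cell antibody RNA was the larger part of the transcriptome. The DKO cell had 259 Igha, 1797 Igkc and 74 Jchain UMIs, or 12.8% of its UMIs, and so lay nearest to the lowest of the KO cells. No Ighm or Ighd UMI was seen in any of the 6 cells. Ighg2b gave 47, 65 and 70 UMIs in 3 of the KO cells, 0 in the other 2, and 31 in the DKO cell.

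The ratio of light chain to heavy chain varied from cell to cell. Each Igha UMI in the Igha-high cells came with 6.62 Igkc UMIs in KO (6.43 to 6.82) and with 6.94 in DKO (6.09 to 7.93), and in the single KO cells with 4.29 to 11.3. It came with 0.716 Jchain UMIs in KO (0.686 to 0.747) and with 0.286 in the single DKO cell. In the single KO cells the Jchain ratio ran from 0.442 to 1.14, all above the DKO cell.

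Variable-gene rows were compared between these cells by UMI counts only, and no rearranged sequence was read. KO cells 1 and 3, counted in the order above, had the same leading genes, with 181 and 29 UMIs of Igkv6-32, 118 and 50 of Ighv5-4, and 126 and 232 of Iglv1. Iglv1 was not particular to this pair, with 56 UMIs in KO cell 2 and 28 in KO cell 4. In the other Igha-high cells the leading kappa variable gene was different in each, Igkv12-89 with 154 UMIs in KO cell 2, Igkv4-57 with 165 in KO cell 4, Igkv1-135 with 14 in KO cell 5 and Igkv10-96 with 13 in the DKO cell.

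Genes known from plasma cells were higher in the Igha-high cells than in the other gated B cells. Since the cells were picked on Igha, these are descriptions. Of 12 plasma cell genes, 11 were higher in the KO cells, Irf4 being at 0, and 9 in the DKO cell. In the DKO cell Sdc1 and Fkbp11 gave 1 UMI each and Irf4 gave 2. The share of all genes that were higher in these cells was not counted. Antibody RNA took up to 71.2% of a cell's UMIs, which lowers the CPM of its other genes. Mzb1, a chaperone of antibody assembly, stood at 4888 CPM in the 5 KO cells against 419 in the other 180, and at 3199 CPM in the DKO cell against 348 in the other 145. Txndc5, a disulfide isomerase of the endoplasmic reticulum, was 52.6-fold higher in the KO cells and 9.56-fold higher in the DKO cell. Xbp1, the transcription factor of the secretory programme, stood at 1030 against 152 CPM in KO and 505 against 129 CPM in DKO. Tnfrsf17, the survival receptor BCMA, gave 12 UMIs in the KO cells and 0 in the others, at least 19.9-fold higher against the limit of 3 counts over the group, and 0 in all gated DKO B cells. Ccr10, a homing receptor of IgA-secreting cells, gave 30 UMIs in 5 of 5 KO cells, at least 49.6-fold higher by the same limit, and 0 in the DKO cell. All folds given as at least, here and below, leave out the counting error of the UMIs that were seen.

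Genes of naive and follicular B cells were lower there. All 9 on that list were lower in the Igha-high cells of KO and of DKO, and 6 of 9 were at 0 in KO. In the single DKO cell all 9 were at 0, where 3 counts are 168 CPM. The share of all genes that were lower was not counted, and the antibody RNA of these cells lowers the CPM of other genes. Ccr7, which guides naive lymphocytes to lymph nodes, gave 0 UMIs in the KO cells against 284 in the others (at least 19.1-fold lower) and 0 in the DKO cell against 240 (at least 3.35-fold lower). Ms4a1, itself a gate gene, gave 0 UMIs in the 5 KO cells, which entered the gate through Cd79a and Cd79b.

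Summed over all gated B cells, Igha, Jchain, Igkc and Ighg2b were lower in DKO. Igha stood at 7873 CPM in KO and 633 in DKO, a log2 difference (DKO over KO) of -3.63 (-3.81 to -3.46). Jchain stood at 5652 and 169 CPM (-5.05, -5.41 to -4.73), Igkc at 54626 and 7584 CPM (-2.85, -2.90 to -2.80) and Ighg2b at 306 and 94.7 CPM (-1.68, -2.21 to -1.21). Of the 9 genes with enough UMIs to compare, 4 were 2-fold or more lower in DKO and 0 were 2-fold or more higher, against 3.81% of 5192 genes lower and 4.56% higher. The median log2 difference of all 5192 genes was 0.14.

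**Figure D2:**
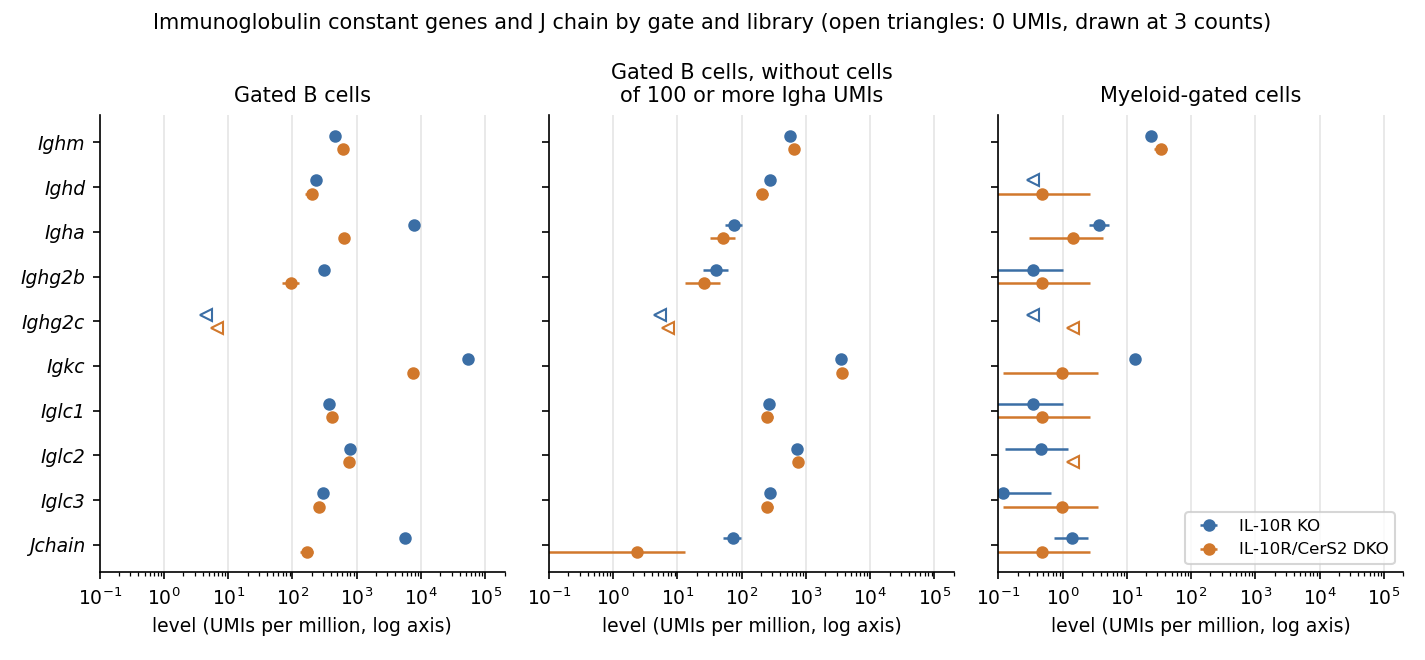
Level of each gene in CPM (log axis) in all gated B cells, in gated B cells with under 100 Igha UMIs, and in myeloid-gated cells, with KO in blue and DKO in orange, horizontal bars for the 95% counting interval, and open triangles at 3 counts where no UMI was seen. Igha, Igkc, Ighg2b and Jchain were lower in DKO in the left panel, and only Jchain remained 2-fold or more lower in the middle one.

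Of the remaining genes, Ighm was higher in DKO by an interval that left out 0, and the intervals of Ighd and the lambda genes held 0. Ighm stood at 462 CPM in KO and 620 in DKO (0.42, 0.18 to 0.66) and Ighd at 233 and 198 CPM (-0.23, -0.62 to 0.16). Iglc1 stood at 372 and 419 CPM (0.17, -0.11 to 0.45), Iglc2 at 787 and 769 CPM (-0.03, -0.23 to 0.17) and Iglc3 at 302 and 262 CPM (-0.20, -0.55 to 0.13). Ighg2c gave 0 UMIs in every gated B cell of both libraries, where 3 counts are 6.76 CPM in DKO and less in KO.

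Without the 6 Igha-high cells the interval of the summed difference held 0. The 10 genes together stood at 5817 CPM in KO and 5853 in DKO, a log2 difference of 0.01 (-0.07 to 0.08), where all gated B cells gave -2.72 (-2.76 to -2.67). Igkc changed from -2.85 to 0.06 (-0.03 to 0.16), so the Igkc difference rested on these cells. Igha was at 42 UMIs in 180 KO cells and 22 in 145 DKO cells (-0.54, -1.37 to 0.22) and Ighg2b at 22 and 11 UMIs (-0.59, -1.81 to 0.49). Jchain was at 40 UMIs in 6 KO cells and 1 UMI in DKO (-4.37, -10.3 to -2.38). It was the only 1 of 9 genes that was 2-fold or more lower in DKO, against 3.80% of 4918 genes, and 0 were 2-fold or more higher, against 3.50%. Ighm was then at 0.22 (-0.02 to 0.46) and Ighd at -0.43 (-0.83 to -0.05).

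The isotype mix by UMIs was set by the same cells. Of heavy-chain UMIs in all gated B cells, with the other rows Ighg1, Ighg3 and Ighe in the denominator, Igha made up 88.3% in KO (87.5 to 89.1) and 40.7% in DKO (37.0 to 44.5). IgM and IgD together made up 7.80% in KO and 52.6% in DKO. With the Igha-high cells left out, IgM and IgD made up 83.9% in KO (80.5 to 86.8) and 90.8% in DKO (87.5 to 93.4), Igha 7.61% and 5.50%, and IgG 8.51% and 3.75%. The IgA share was higher in KO with and without these cells, and without them the intervals of the IgA shares overlap. Those of IgG, 6.32 to 11.2 in KO and 2.11 to 6.11 in DKO, and those of IgM and IgD do not. These intervals count UMIs of the same cell as separate draws, so they are too narrow to show a difference between libraries. Of the 47 IgG UMIs in KO, 25 were of Ighg1, and single cells held 19 and 5 of these. The same UMIs enter the denominator of the IgM and IgD share. Whether either gap remains without these cells was not tested.

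**Figure D3:**
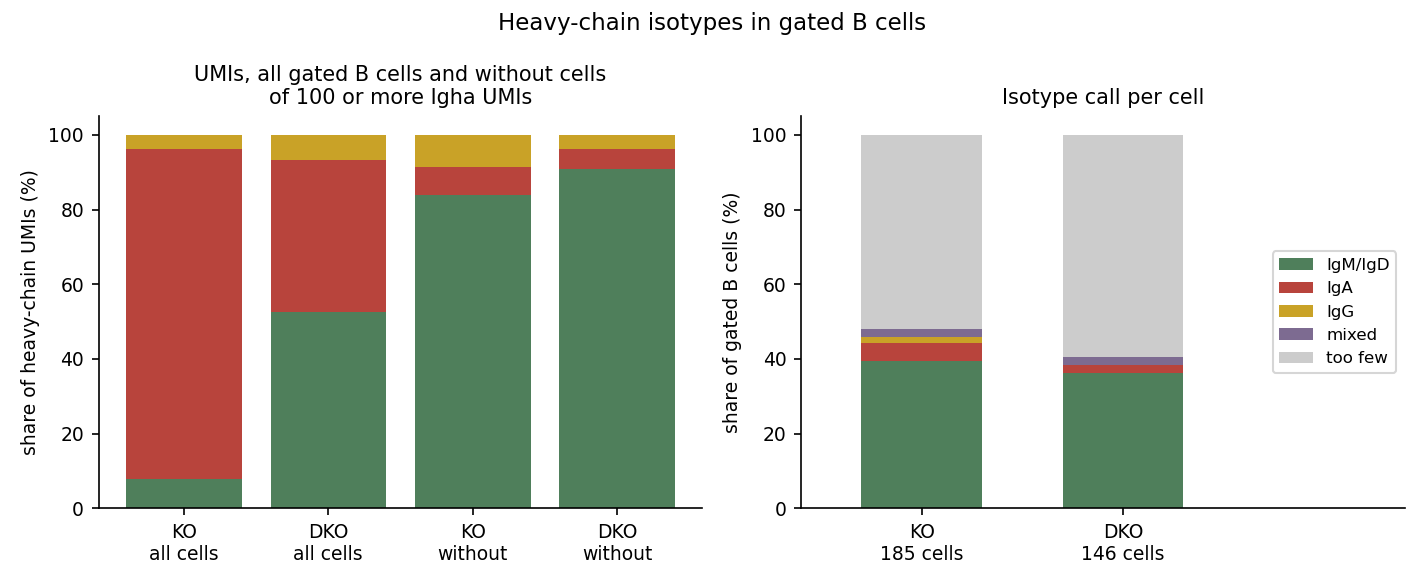
Left, share (%) of heavy-chain UMIs that were IgM/IgD, IgA or IgG in all gated B cells and without the cells of 100 or more Igha UMIs; right, share (%) of gated B cells by isotype call. IgM/IgD takes 7.80% of KO UMIs in all cells and 83.9% with 5 cells left out, and of cells with a call from 3 or more UMIs, IgM/IgD is the most frequent in both libraries.

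Counted by cells, IgM/IgD was the most frequent class in both libraries under the rule used here. A cell was called when it had 3 or more heavy-chain UMIs with 75% or more of 1 class. In KO, 73 cells were called IgM/IgD, 9 IgA, 3 IgG and 4 mixed, and 96 had too few UMIs, 24 of them none. In DKO, 53 were called IgM/IgD, 3 IgA, 0 IgG and 3 mixed, and 87 had too few, 20 of them none. IgM/IgD thus took 85.9% of called KO cells (76.6 to 92.5) and 94.6% of called DKO cells (85.1 to 98.9), intervals that overlap. This depended on the rule in KO. With 10 or more UMIs and 90% or more of 1 class, IgM/IgD took 27.3% of called cells in KO and 80% in DKO. Few cells met that stricter rule. The DKO Igha-high cell, with Igha at 89.3% of its heavy-chain UMIs, missed it. These shares are therefore not a comparison of the libraries. The median gated cell held 2.0 heavy-chain UMIs in each library, so over 50% of cells in each went uncalled, and their classes are not known at this depth.

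Ighm and Ighd often occurred together. Both were seen in 71 gated KO cells and 44 DKO cells, Ighm alone in 54 and 59, and Ighd alone in 22 and 16. In cells called IgM/IgD, 57 of 73 in KO and 33 of 53 in DKO had both. None of these called cells had an Igha or Jchain UMI in either library. Each Ighm UMI came with 0.503 Ighd UMIs in KO (0.412 to 0.612) and with 0.320 in DKO (0.249 to 0.408), so the balance leaned further to Ighm in the DKO library.

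Among the gated B cells with under 100 Igha UMIs, those with an Ighd UMI held little of the IgA unit. Igha gave 1 UMI in the 93 KO cells with Ighd and 41 in the 87 without, and 0 in the 60 DKO cells with Ighd and 22 in the 85 without. Jchain gave 0 and 40 UMIs in KO, and 0 and 1 in DKO. Fcer2a, the low-affinity IgE receptor CD23 of follicular B cells, stood at 220 CPM with Ighd and 184 without in KO, and at 297 and 86.6 CPM in DKO. Iglc1 went the other way, at 149 CPM with Ighd and 382 without in KO, and at 151 and 319 CPM in DKO, although the share of cells with an Iglc1 UMI was near equal, 23.7% and 23.0% in KO and 23.3% and 17.6% in DKO. A few cells of many Iglc1 UMIs therefore carried that difference.

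Beyond the Igha-high cells, IgA calls were few and low. The other 4 IgA-called KO cells had 19, 12, 3 and 3 Igha UMIs, and the other 2 DKO cells had 10 and 7. The KO cell with 19 Igha UMIs also had 144 Igkc UMIs in a total of 1615, 10.8% of its UMIs. The KO cell with 12 had 9 Ms4a1 UMIs and 0 of Mzb1, so plasma cell genes did not mark every IgA-called cell.

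IgG was seen in 3 called KO cells. One had 7 Ighg2b UMIs. The other 2 had no Ighg2b, and their class came from 19 and 5 UMIs of Ighg1, which is not among the 10 genes. These 2 cells had 78 and 43 Igkc UMIs, 7 and 18 Jchain UMIs and 19 and 25 Mzb1 UMIs, and they also held 10 and 5 of the 16 UMIs of Rgs13, a germinal centre gene that was at 0 in DKO B cells. Outside the Igha-high cells, Ighg2b was seen in 5 KO cells and 6 DKO cells. Of the 4 mixed KO cells, 3 had Ighm and Ighg2b together, with 3 and 5, 5 and 6, and 3 and 3 UMIs, and of the 3 mixed DKO cells, 2 had both.

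Kappa was the more frequent light chain by cells in both libraries. By the same rule on light-chain UMIs, 102 KO cells were called kappa, 11 lambda and 51 mixed, with 21 too low, and 81 DKO cells were called kappa, 8 lambda and 42 mixed, with 15 too low. By UMIs, lambda made up 2.60% of light-chain UMIs in KO (2.45 to 2.77) and 16.0% in DKO (14.9 to 17.2). Without the Igha-high cells, which were kappa, lambda made up 26.6% in KO (24.9 to 28.3) and 25.2% in DKO (23.4 to 27.1). The large gap between the libraries thus came with the Igha-high cells, and no gap beyond the counting intervals was left without them.

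**Figure D4:**
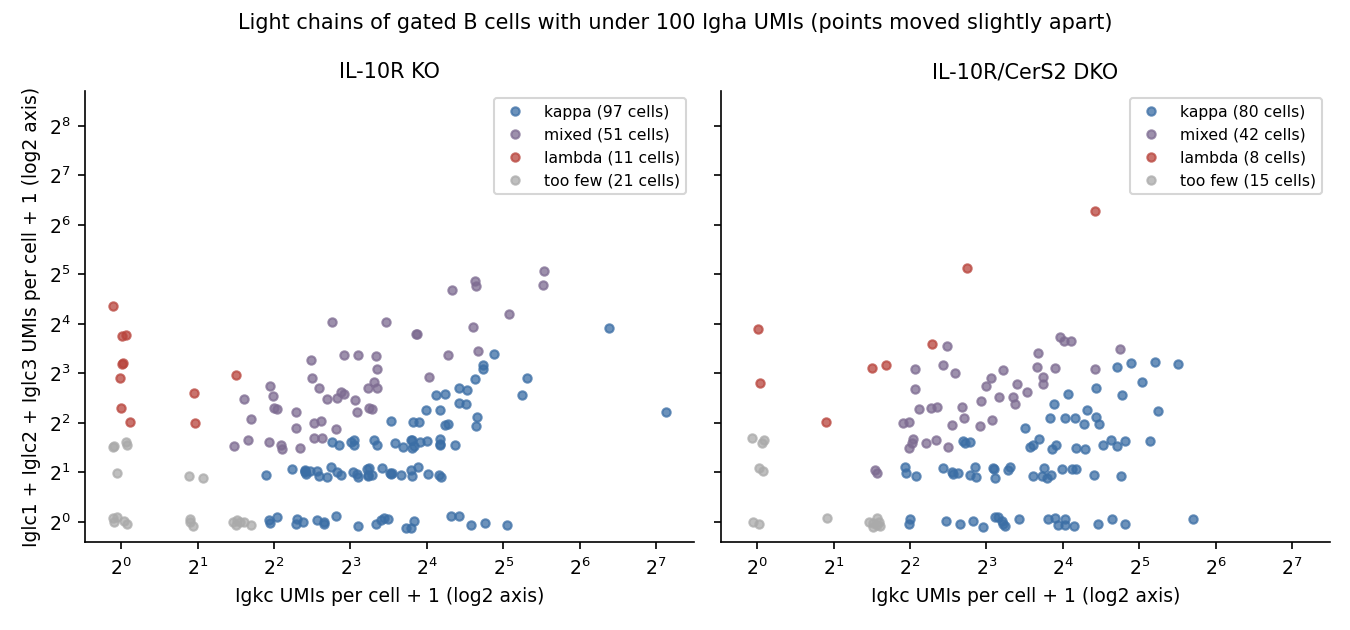
Summed Iglc1, Iglc2 and Iglc3 UMIs against Igkc UMIs, both plus 1 on log2 axes, in each gated B cell with under 100 Igha UMIs, coloured by light-chain call, with points moved slightly apart. Most cells with Igkc also hold lambda UMIs, and mixed calls number 51 in KO and 42 in DKO.

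Lambda constant UMIs were seen in most cells with Igkc. Of cells called kappa with under 100 Igha UMIs, 74 of 97 in KO (76.3%) and 58 of 80 in DKO (72.5%) had a lambda UMI, with at most 15 and 9. Of gated B cells with under 100 Igha UMIs and 10 or more Igkc UMIs, whatever their call, 60 of 71 in KO (84.5%) and 52 of 63 in DKO (82.5%) also had a lambda UMI, with a median of 3.0 and 2.0 and a highest of 31 and 71. Of cells with 1 to 4 Igkc UMIs, 25 of 40 in KO and 23 of 33 in DKO had one. The part of free RNA in this was not tested. The myeloid-gated cells held 8 lambda UMIs in 1459 KO cells and 3 in 331 DKO cells. With the Igha-high cells left out, lambda variable genes gave 5 UMIs in KO and 2 in DKO beside 706 and 528 lambda constant UMIs, while kappa variable genes gave 44 and 34 beside 1951 and 1567 Igkc UMIs.

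Among the lambda genes Iglc2 led in both libraries. With the Igha-high cells left out, Iglc2 took 57.5% of lambda UMIs in KO and 59.7% in DKO, Iglc1 took 20.7% and 20.3%, and Iglc3 took 21.8% and 20.1%. These shares are not set per length, and the split between Iglc2 and Iglc3 depends on the near copies shown above. In the Igha-high KO cells, lambda variable genes gave 467 UMIs and the lambda constant genes 267, with Iglv1 alone at 442.

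Around the 10 genes, the fixed lists gave the state of the gated B cells. None of the 15 B cell receptor and signalling genes was 2-fold or more higher in DKO and 1 was lower (median log2 difference 0.13), and of the 9 naive and follicular genes 0 were higher and 0 lower (0.34). Of the 12 plasma cell genes, 10 had enough UMIs, and 8 were 2-fold or more lower in DKO and 1 higher (-1.27), against 3.81% and 4.56% of all genes. The 8 included Mzb1 at -1.34 (-1.57 to -1.11), Txndc5 at -2.42 (-3.38 to -1.66) and Xbp1 at -1.04 (-1.48 to -0.64). The 1 that was higher was Irf4, at 1.21 (0.49 to 1.98). Without the Igha-high cells 7 of the 12 could be compared, and 0 were 2-fold or more lower and 0 higher (-0.18). Ccr10 of the gut homing list gave 30 UMIs in KO and 0 in DKO, all 30 in the Igha-high cells, and the homing integrin gene Itga4 stood at 173 and 185 CPM. Of 2 class switch and germinal centre genes with enough UMIs 1 was higher, Ung, at 6 UMIs in KO and 16 in DKO. Of the antibody receptor genes, Fcer1g, a signalling chain of Fc receptors, gave 183 UMIs in 13 KO cells and 5 in DKO, and it is also a myeloid gene. The part of myeloid RNA in this was not tested.

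Outside the B cell gate, Ighm gave the most heavy-chain UMIs in both libraries. Myeloid-gated cells, defined by Lyz2, Csf1r, Cd14, Fcgr1, Adgre1 and C1qa with 0 UMIs of the B and T gate genes, numbered 1459 in KO and 331 in DKO, with median depths of 5521 and 5641 UMIs. Ighm gave 204 UMIs in 153 KO cells, or 23.9 CPM (20.7 to 27.4), and 69 UMIs in 52 DKO cells, or 33.6 CPM (26.1 to 42.5), a log2 difference of 0.50 (0.08 to 0.89). Of B cell markers the gate did not use, Pax5 gave 0 UMIs in the myeloid-gated cells of both libraries, Ebf1 and Ly6d gave 1 UMI each in KO and 0 in DKO, and Cd22 gave 34 UMIs in 30 KO cells and 1 UMI in DKO. Pax5 was also low in gated B cells, seen in 16.8% of those of KO. At 1500 UMIs per cell, leaving out 43 KO and 15 DKO cells, 3.60% of KO and 6.65% of DKO myeloid-gated cells had an Ighm UMI, against 51.1% and 54.6% of gated B cells.

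Igkc in myeloid-gated cells was seen mainly in KO, which did not hold for cells that met no gate or several. For T-gated cells the CPM was higher in DKO through 1 cell, while Igkc was seen in 5.84% of KO and 3.19% of DKO cells. Neutrophil-gated cells held 5 Igkc UMIs in KO and 0 in DKO, where 3 counts are 44.6 CPM. In myeloid-gated cells Igkc gave 116 UMIs in KO, or 13.6 CPM (11.2 to 16.3), and 2 in DKO, or 0.973 CPM (0.118 to 3.52), a log2 difference of -3.49 (-6.86 to -1.92). A single pair of KO cells with 15 Igkc UMIs each held 30 of the 116. Igha gave 32 UMIs in KO and 3 in DKO (-1.16, -3.71 to 0.32), Jchain 12 and 1, Ighd 0 and 1, Ighg2b 3 and 1, and Iglc1, Iglc2 and Iglc3 between 0 and 4. Only Ighm, Igha and Igkc had enough UMIs to compare, and 2 of 3 were 2-fold or more lower in DKO and 0 higher, against 3.85% of 9810 genes in each direction. In T-gated cells, Ighm stood at 35.4 CPM in KO and 43.6 in DKO and Igkc at 13.7 and 33.3 CPM, with 11 of the 13 Igkc UMIs of the DKO T-gated cells in 1 cell. In the cells that met no gate or several, 382 in KO and 116 in DKO, Igkc stood at 414 and 399 CPM. The B cell gene Ebf1 was seen in 55 of these KO cells and 21 of these DKO cells, so they are not a group without B cells. The part of B cells in their Igkc was not tested. Over all kept cells outside the B cell gate, these included, Igkc stood at 64.0 CPM in KO and 60.9 in DKO.

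The proportions of the genes differed between gates. Each Ighm UMI came with 6.33 Igkc UMIs in KO gated B cells (5.61 to 7.17) and with 5.70 in DKO (5.01 to 6.50), the Igha-high cells left out, and 118 and 12.2 with them. In myeloid-gated cells the ratio was 0.569 in KO (0.449 to 0.718) and 0.0290 in DKO (0.00344 to 0.109). In T-gated cells it was 0.386 in KO and 0.765 in DKO, where 1 cell held 11 of the 13 Igkc UMIs. Ighd, at 0.503 per Ighm UMI in KO B cells, was at 0 against 204 Ighm UMIs in KO myeloid-gated cells, with an upper bound of 0.0182. In the cells that met no gate or several, each Ighm UMI came with 4.44 Igkc and 0.239 Ighd UMIs in KO, and with 6.04 and 0.259 in DKO. Igkc and Ighd were thus low beside Ighm in the myeloid- and T-gated cells. They were nearer to the proportions of gated B cells in the cells that met no gate or several. The source of the Ighm UMIs was not tested.

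**Figure D5:**
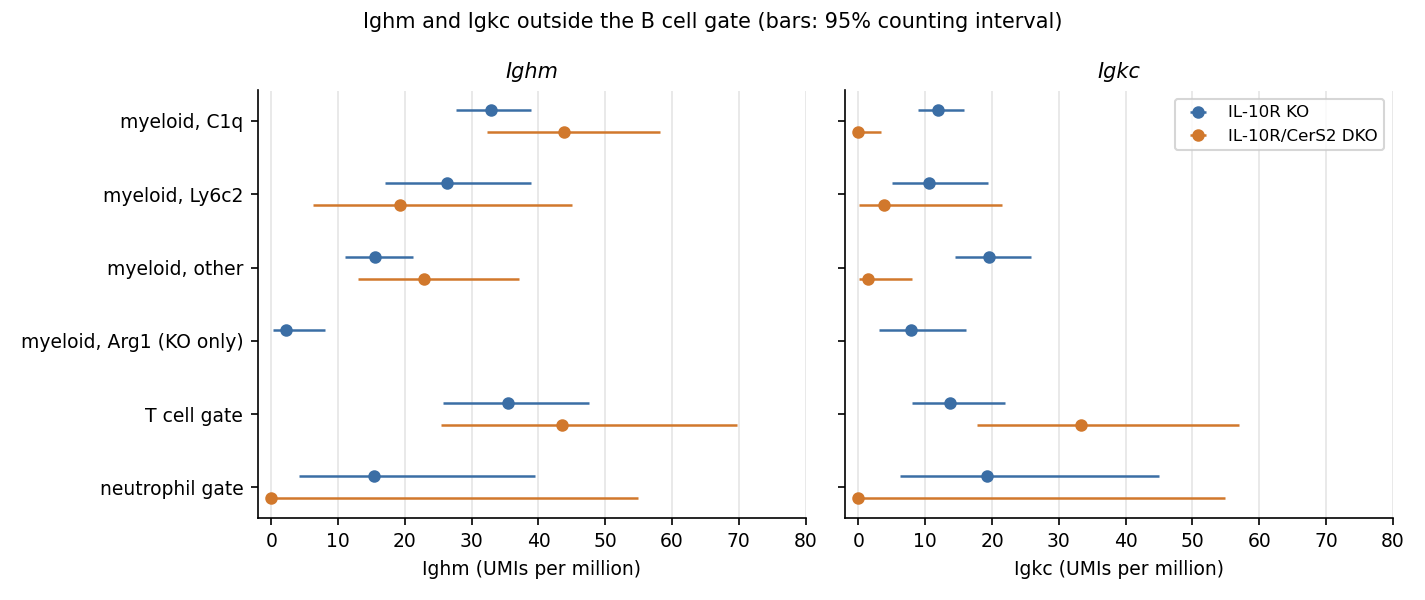
Level of Ighm (left) and Igkc (right) in CPM in classes of myeloid-gated cells and in T- and neutrophil-gated cells, with KO in blue, DKO in orange and bars for the 95% counting interval. Ighm was at 33.0 CPM in KO and 43.9 in DKO cells with C1q genes and at 2.23 in KO cells with Arg1, a class with no DKO cells. Igkc stayed under 4 CPM in each DKO myeloid class, from 0 or 1 UMI each. In the 46 DKO cells with Ly6c2 its interval ran to 21.5 CPM and held the KO value of 10.5.

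Within the myeloid-gated cells Ighm differed by class. The classes were drawn after the values had been seen, by UMIs of Arg1, then the C1q genes, then Ly6c2. A class does not mean presence or absence of a UMI. C1qa was seen in 160 DKO myeloid-gated cells, and the DKO class with C1q genes held 157. Cells with C1q genes, the complement genes of resident macrophages, held Ighm at 33.0 CPM in KO (27.7 to 38.9) and 43.9 in DKO (32.3 to 58.2). Cells with Ly6c2, a gene of recruited monocytes, held 26.4 CPM in KO and 19.3 in DKO, and the cells outside these classes held 15.5 and 22.8. The 133 KO cells with Arg1 held 2 Ighm UMIs, or 2.23 CPM (0.270 to 8.06). Igkc did not follow this order in KO, at 11.9 CPM with C1q genes, 19.5 in the cells outside these classes and 7.81 with Arg1.

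Myeloid-gated cells with an Ighm UMI also differed in other genes from those without. The genes below were looked up after the values had been seen, and cells with an Ighm UMI were somewhat deeper, with medians of 5964 against 5485 UMIs in KO and 6302.5 against 5563 in DKO. The chemokine gene Ccl12 stood at 266 CPM with Ighm and 22.9 without in KO, and at 91.8 and 45.4 CPM in DKO. The lipoprotein gene Apoe was higher with Ighm by 1.63 on the log2 scale in KO and 0.73 in DKO, and Adgre1, the macrophage gene for F4/80, by 1.22 and 1.37. Fn1, the gene of fibronectin, was lower, at -1.90 in KO and -1.92 in DKO. Igkc was near equal in KO cells with and without Ighm, at 12.2 and 13.8 CPM.

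Across the cell gates of both libraries, 11 points that share the 2 libraries, the genes whose log2 levels tracked the members most closely were named by rule among 9508 genes, as a description. For Igkc they were Pou2af1, a B cell coactivator, with a Pearson r of 0.95, then Gm31243, Ly6d, Chst3 and Blk. For Jchain they were Myl4 (0.93), Serp1 (0.91), Fkbp11 (0.91), Dgkd (0.89) and Eaf2 (0.86), and for Igha Serp1 (0.91), Myl4, Cd22, Dgkd and Fkbp11, so that 4 genes stood in both sets. For Ighm they were Phlpp2 (0.97), Fam69a, Rrs1, Nop2 and 2310061I04Rik, none of which stood in the other 3 sets.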

How the data were processed

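Colon cells of chimeric mice were measured by droplet 3′ single-cell RNA-seq, with 1 library per genotype. The authors deposited UMI counts of each gene in each barcode, not normalized. Cell Ranger 6.0.1, Seurat 4.3.0 and mm10 are named in the submitters' processing notes. The study's own cell filter was repeated, which keeps cells of 300 to 5000 detected genes with no more than 10% of UMIs from mitochondrial genes. No correction for free RNA was made, and Scrublet (scanpy 1.11.5) marked 6 of 2584 KO and 2 of 742 DKO barcodes, too few to show that the caller worked, so doublets were not removed. No cell annotation by the authors was used, and cells were gated on fixed marker sums. The number of unused columns of sample values was 0.

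UMIs were summed per gate and library and divided by all UMIs of the gate (CPM). Log2 differences had 0.5 counts added, with exact conditional intervals. Sums had Poisson intervals and shares Clopper-Pearson intervals. Genes with 20 or more UMIs over both libraries entered counts of genes past 2-fold. The named genes were the 10 members, the lists of related genes, and the 5 genes of highest Pearson r with Ighm, Igha, Igkc and Jchain. On simulated counts for the gated B cells, 95.5% of 200 genes changed 4-fold were recovered past 2-fold, among 5192 genes. Of the unchanged genes, 3.65% were past 2-fold. The simulation held counting error only and no differences between cells, so it does not cover sums set by a few cells. In R 4.3.3, edgeR 4.0.16 gave TMM factors for an alternative only. Positions, transcripts and sequences came from GENCODE annotation of GRCm38. Members and lists were chosen with earlier results of these data known, and the bound of 100 Igha UMIs, the myeloid classes and the genes compared by Ighm after the values had been seen. Values of some listed genes are not reported here.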

Additional observations from a re-analysis of the deposited data

Results flagged for a closer look

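The 141 KO barcodes left out by the filter on cells held 13 Igkc UMIs, above the limit that a count of 0 allows, or 94.1 CPM (50.1 to 161), in 11 barcodes with at most 3 UMIs each. Of these 141 barcodes, 133 were over the mitochondrial bound and 118 had too few genes.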

How the results depend on the processing

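With 1 library per genotype, no replicate could be left out. No paired analysis was possible because each group had 1 sample and no test was run. Of the main values, 63 alternatives kept the value within its interval, 36 moved it and 1 changed its sign. With a B gate of 2 or more UMIs, the B cell share was 8.84% in KO, the share of the 10 genes' UMIs inside the gate 97.8% in KO and 96.2% in DKO, and the log2 difference of the 10 genes -2.62. With 5 or more, B cell shares were 5.40% and 15.6%, IgA shares of heavy-chain UMIs 89.6% and 44.8%, the lambda share in KO 2.295%, the shares inside the gate 95.6% and 85.7%, and the log2 difference -2.85. Thinned to 1500 UMIs per cell, IgA shares were 60.8% and 12.3%, IgM/IgD took 76.2% of called KO cells, lambda shares were 9.79% and 19.2%, the shares inside the gate 90.7% and 89.6%, and the log2 difference -1.25. Without the Igha-high cells, an alternative added after the data were seen, IgA shares were 7.61% and 5.50% and lambda shares 26.6% and 25.2%. The shares inside the gate were 69.6% and 88.1%. The log2 difference changed sign, to 0.0091 (-0.067 to 0.085), as did that of Igkc, to 0.064 (-0.032 to 0.161). Both intervals held 0. With each cell weighted equally IgA shares were 6.35% and 3.06%. With calls from 10 UMIs and 90%, under which few cells were called, IgM/IgD took 27.3% of called KO cells and 80% of called DKO cells. The log2 difference was -2.85 without gated B cells that held myeloid UMIs, -2.81 over totals without immunoglobulin UMIs, -2.89 with TMM scaling and -2.93 without the cell of each library with the most UMIs. With genes of 50 or more UMIs, 114 in place of 435 genes were past 2-fold in gated B cells and 375 in place of 756 in myeloid-gated cells. The causes of these shifts were not tested beyond what each alternative leaves out. Depth limits the isotype calls, since 96 of 185 KO and 87 of 146 DKO B cells held too few heavy-chain UMIs.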
